A study of Mus musculus with 87 samples.

Results

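A set of 9 transcription factor genes of the ventral and intermediate neural tube, of 26171 gene symbols in all, was read by row name in 13 tables of RNA-seq comparisons: Dbx1, Dbx2, Olig1, Olig2, Nkx2-2, Nkx2-9, Nkx6-1, Nkx6-2 and Irx3. All come from 129-B13 mouse cells, either embryonic stem cells (ESC, in serum with LIF, 18 samples) or neuronal precursors (NP, 14 samples) obtained through embryoid bodies with retinoic acid from day 4 and harvest on day 8. The study compared forms of Suz12, which encodes a core subunit of Polycomb repressive complex 2 (PRC2) and whose exon 4 is alternatively spliced. The groups were wild type (WT, 4 NP and 3 ESC samples), cells in which exon 4 is always included (CSex4, 2 and 2), cells in which exon 4 was deleted (Deltaex4, 2 and 2), the full Suz12 knock-out (KO, 2 NP and 3 ESC), and that knock-out rescued with the long isoform (KO-L, 2 and 2) or the short isoform (KO-S, 2 and 2). In ESC, both rescues also exist with a mutation named 3D in the labels, placed at the Rosa26 locus (KO-L3D and KO-S3D, 2 samples each). All rescue groups thus carry the knock-out as well. The labels do not give the number of clones, nor whether replicates were separate cultures. The p-values thus measure the spread between these samples, or within replicate pairs if the authors' fit was paired, as the labels call it. That spread may be technical.

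In the developing spinal cord, Sonic hedgehog from the notochord and floor plate divides the ventricular zone into stripes of progenitors, each with its own set of homeodomain and basic helix-loop-helix factors. Factors of neighbouring stripes repress each other, which sharpens the borders, and retinoic acid favours the more dorsal of these factors. Irx3 and Dbx2 mark intermediate progenitors and Dbx1 the p0 stripe, Nkx6-1 and Nkx6-2 span the ventral stripes, Olig2 and Olig1 mark motor neuron progenitors and later oligodendrocyte precursors, and Nkx2-2 and Nkx2-9 mark the p3 stripe next to the floor plate. Genes of this kind are classical Polycomb targets: PRC2 methylates lysine 27 of histone H3 (H3K27me3) over them in cells where they are silent.

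RefSeq promoter windows (GRCm38.p6, 250 bases before to 50 after the start site) were at hand for 8 of the 9 genes, all but Olig1. Windows of 3 genes are shown, those with the largest called fold changes of the knock-out precursors over WT libraries a and b, Dbx1 and Olig2 down and Nkx2-9 up (with WT libraries c and d, Dbx2 changed more than Olig2); capitals mark CG dinucleotides, the base pair step that is dense in the CpG islands to which PRC2 binds. Dbx1 lies on the minus strand at chr7:49636786-49637085, Olig2 on the plus strand at chr16:91225300-91225599 and Nkx2-9 on the minus strand at chr12:56613235-56613534, each given 5′ to 3′ along the gene.
Dbx1: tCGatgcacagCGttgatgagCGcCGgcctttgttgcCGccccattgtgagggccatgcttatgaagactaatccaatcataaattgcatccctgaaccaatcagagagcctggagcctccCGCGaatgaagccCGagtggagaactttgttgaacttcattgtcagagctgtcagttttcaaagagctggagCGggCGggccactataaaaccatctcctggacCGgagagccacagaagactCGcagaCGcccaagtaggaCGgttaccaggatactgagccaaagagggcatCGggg
Olig2: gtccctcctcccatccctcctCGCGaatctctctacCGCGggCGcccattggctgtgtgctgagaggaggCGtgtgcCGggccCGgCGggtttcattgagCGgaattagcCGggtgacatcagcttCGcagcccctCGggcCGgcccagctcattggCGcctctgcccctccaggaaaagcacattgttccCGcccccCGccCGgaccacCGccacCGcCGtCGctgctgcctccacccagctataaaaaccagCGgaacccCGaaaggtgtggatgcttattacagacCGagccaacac
Nkx2-9: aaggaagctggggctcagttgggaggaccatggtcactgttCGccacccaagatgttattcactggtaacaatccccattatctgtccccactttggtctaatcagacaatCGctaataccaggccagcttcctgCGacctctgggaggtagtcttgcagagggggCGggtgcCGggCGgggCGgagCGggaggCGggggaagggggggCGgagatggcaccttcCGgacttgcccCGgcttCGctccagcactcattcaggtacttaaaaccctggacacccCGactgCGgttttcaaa

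The Dbx1 and Nkx2-9 windows hold 15 CG each and the Olig2 window 25. Over the 8 windows the number ran from 10 at Dbx2 to 40 at Nkx6-1, with a median of 16, against a median of 14 over 16828 protein-coding genes. Nkx6-1 and Nkx6-2, with 32 in the latter, stood highest, and 4.94% and 12.3% of all windows held at least as many. The motif TATAAA, searched on both strands, occurred in 2 of 8 windows, those of Dbx1 and Olig2, and in 13.2% of all windows. In Dbx1 it starts 45 bases before the annotated start and in Olig2 8 bases before it, on the strand of the gene in both. The Gli motif GACCACCCA was in 0 of 8 windows and in 0.178% of all, and a retinoic acid receptor motif, AGGTCA repeated in the same direction with 5 bases between, in 0 of 8 and in 0.00594% of all. No match says only that these letters are not in these windows.

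In ESC, the deposited lists hold regions of H3K27me3 (6882) and of Suz12 (2865) that passed a false discovery rate of 5% in a comparison of WT with a group that the list does not name, and the direction of the difference is not given. All 9 genes had a region of each kind over them or within 2500 bp, against 23% of 20988 protein-coding genes for H3K27me3 and 12.2% for Suz12. The start site of the first promoter window listed for each gene was covered by both kinds in 8 of the 8 genes with a window. At Nkx2-2 and Nkx2-9 this start lies inside the gene. The 5′ end of Nkx2-2 (chr2:147195434) lay in the same H3K27me3 region and in a different Suz12 region (chr2:147192414-147196195). The value beside each region is the authors' own. By that value, Nkx2-2 (chromosome 2) had the gene set's leading H3K27me3 region, 22328 bp wide and rank 14 of the list. Irx3 (chromosome 8) had the leading Suz12 region, 10389 bp wide and rank 46. Nkx6-1 (chromosome 5) followed, with an H3K27me3 region of 18082 bp at rank 47 and a Suz12 region of 13359 bp at rank 79. At Dbx1 (chromosome 7) the H3K27me3 region spanned 12970 bp and the whole gene, and the Suz12 region 9484 bp. Dbx2 (chromosome 15) was the exception, with regions of 2419 and 1476 bp around its start that covered 3.80% and 3.20% of its 31209 bp, at ranks 2898 and 2700. Olig2 and Olig1 lie 41092 bp apart on chromosome 16 and each had its own pair of regions; no region spanned both. The widths at Olig2 were 18107 and 11707 bp, and at Olig1 4231 and 2936 bp.

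**Figure D1:**
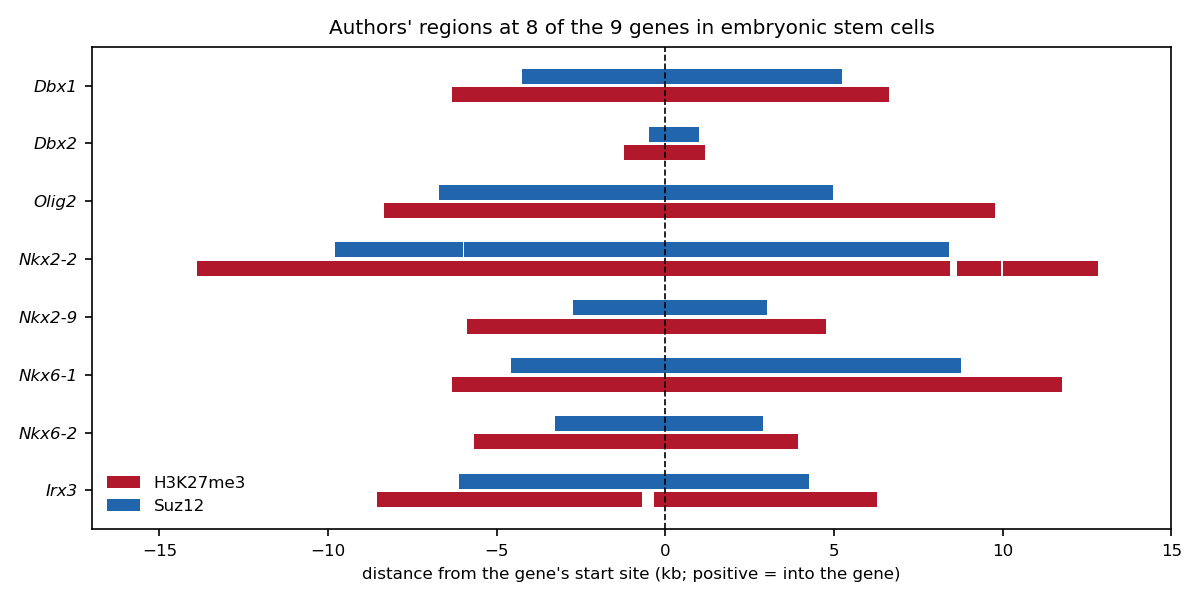
Extent of the H3K27me3 regions (red) and Suz12 regions (blue) around the start sites of 8 genes, in kb with positive values into the gene. The start site is that of the first promoter window listed for the gene. Olig1 had no annotated start in the tables used. Each start site lies inside a region of both kinds, and the Dbx2 regions, at 2419 and 1476 bp, are the narrowest of those over a start site.

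The knock-out was checked on Suz12 itself, in tables rather than single libraries. Suz12 mRNA fell in KO against WT by 2.14 ± 0.33 in NP and by 1.82 ± 0.22 in ESC (log2, SE) in the authors' deposited tables, with authors' adjusted p of 5.6e-09 and 8.2e-15. In NP, both rescues lay above KO in the authors' deposited tables (KO-L 1.35 ± 0.21, KO-S 1.09 ± 0.20). A second pair of WT libraries lay above the same KO libraries by 1.45 ± 0.27 in the authors' deposited table (adjusted p 1.2e-06). In ESC, Suz12 stayed below WT in KO-L (-1.05 ± 0.28, adjusted p 0.014) and KO-S (-0.83 ± 0.27, adjusted p 0.035) and was at -0.06 ± 0.42 in KO-S3D (adjusted p 0.97) in the authors' deposited tables. In the libraries labelled KO-L3D it was at -1.85 ± 0.28 against WT in the authors' deposited table (adjusted p 3.8e-09), beside -1.82 in KO, so its mRNA level goes against the label of a rescue there. Summed over genes, the mean normalised count per library was 26085140 to 31499803 in the 13 tables. Whole reads of each gene in each library were worked out from the deposited means (14 NP and 18 ESC libraries, all 9 genes), and libraries are called a, b, c and d because their replicate numbers are not known. NP WT libraries a and b are the controls of the CSex4, Deltaex4 and KO tables, and c and d stand in a separate WT vs KO table. WT library b stood apart in Olig3, a dorsal marker, with 1534 reads against 64, 118 and 277 in a, c and d.

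In NP, the knock-out lost Dbx1, Irx3 and Olig2 and gained Nkx2-9, and the remaining 5 genes were not called in KO vs WT. Of the 9 genes, 4 were called there at an adjusted p under 0.05 (3 lower, 1 higher), against 21.4% of all genes tested. The median log2 fold change of the 9 was -1.27 in the authors' deposited table, beside -0.0063 over all genes with an adjusted p. In the separate table of WT libraries c and d over the same KO libraries, 5 of 9 were called, against 32.9% of all genes tested: Dbx1, Dbx2, Olig2 and Irx3 higher in WT, and Nkx2-9 lower. Both tables share the KO libraries. Dbx1 reads, normalised, did not overlap between the WT pairs, at 1419 and 956 in a and b and 3240 and 2312 in c and d. In bulk libraries such as these, fewer cells of a type and less RNA per cell cannot be told apart.

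Dbx1, which marks the progenitors of V0 interneurons, had 1591, 988, 4971 and 2311 reads in WT libraries a to d, and 4 and 1 in KO. The WT and KO libraries lay far apart, with no overlap. The log2 fold change of KO over WT was -8.78 ± 0.80 in the authors' deposited table (authors' adjusted p 1.5e-25). Both rescues brought reads back: 280 and 287 in KO-L, 2345 and 2385 in KO-S. The KO-S libraries lay inside the WT range, and both KO-L libraries lay below every WT library. Over KO, Dbx1 was higher by 6.95 ± 0.81 (KO-L) and 9.95 ± 1.01 (KO-S) in the authors' deposited tables (adjusted p 4.5e-16 and 3.1e-21). CSex4 had 470 and 415 reads, below all 4 WT libraries, and Deltaex4 973 and 1593. Dbx1 was the only one of the 9 genes called in CSex4, at -1.33 ± 0.36 in the authors' deposited table (adjusted p 0.0060); 5.53% of all genes tested were called there, 1.45% as lower. In the CSex4 comparison all 5 pluripotency markers rose and 3 of 6 neural precursor markers fell; their part in the Dbx1 value was not tested.

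Dbx2, the paralog of Dbx1 with a broader intermediate domain, was scarce: 48, 15, 96 and 44 reads in WT, 26 and 13 in CSex4, 14 and 10 in Deltaex4, 8 and 1 in KO, 10 and 5 in KO-L, and 25 and 34 in KO-S. KO lay below every WT library, and KO-S inside the WT range. In the authors' deposited table of WT vs KO it was higher in WT by 3.86 ± 1.20 (adjusted p 0.0056), while KO vs WT with the other WT pair gave -2.81 ± 1.60 (adjusted p 0.22). The value for KO-S over KO was 3.06 ± 1.35 in the authors' deposited table (adjusted p 0.065).

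Irx3, an intermediate and dorsal progenitor factor, had 1744, 2364, 4220 and 2600 reads in WT and 484 and 203 in KO, without overlap. KO was lower by 2.49 ± 0.37 in the authors' deposited table (log2, SE; adjusted p 8.7e-10). KO-L had 334 and 233 reads, and its log2 difference from KO was -0.08 ± 0.35 in the authors' deposited table (adjusted p 0.92). KO-S had 1290 and 1059 reads, higher than KO by 1.85 ± 0.27 in the authors' deposited table (adjusted p 2.3e-10). Deltaex4 was the highest group, with 2984 and 3702 reads, and CSex4 had 1191 and 1103. Neither was called against WT, at 0.82 ± 0.31 (unadjusted p 0.0089, adjusted p 0.99996) and -0.65 ± 0.34 (adjusted p 0.34) in the authors' deposited tables. By the Deltaex4 comparison, 0 of the 9 genes and 0.0809% of all genes tested were called by the authors' test; Irx3 was the only one of the 9 with an unadjusted p under 0.05.

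Olig2, the motor neuron progenitor factor, had 163, 63, 192 and 96 reads in WT, 45 and 44 in CSex4, 39 and 89 in Deltaex4, 23 and 5 in KO, 44 and 36 in KO-L, and 598 and 435 in KO-S. The KO libraries were lowest and the KO-S libraries highest, above all others. KO was lower than WT by 2.93 ± 0.97 in the authors' deposited table (log2, SE; adjusted p 0.015). The log2 ratio computed from the reads of Olig2 was -2.97, and ran from -3.94 without KO library a to -1.996 without KO library b. KO-S was higher than KO by 5.34 ± 0.48 in the authors' deposited table (adjusted p 2.0e-26), and the KO-L value was 1.92 ± 1.02 (adjusted p 0.17). Its neighbour Olig1, a related basic helix-loop-helix gene, had 50, 32, 85 and 35 reads in WT, 80 and 86 in CSex4, 44 and 49 in Deltaex4, 25 and 8 in KO, 74 and 54 in KO-L, and 321 and 282 in KO-S. The KO reads lay below every WT library, but KO vs WT was not called (-1.27 ± 1.18, adjusted p 0.51, in the authors' deposited table). Both rescues were called over KO, KO-L at 2.22 ± 0.83 and KO-S at 4.28 ± 0.51 in the authors' deposited tables (adjusted p 0.034 and 2.2e-15).

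**Figure D2:**
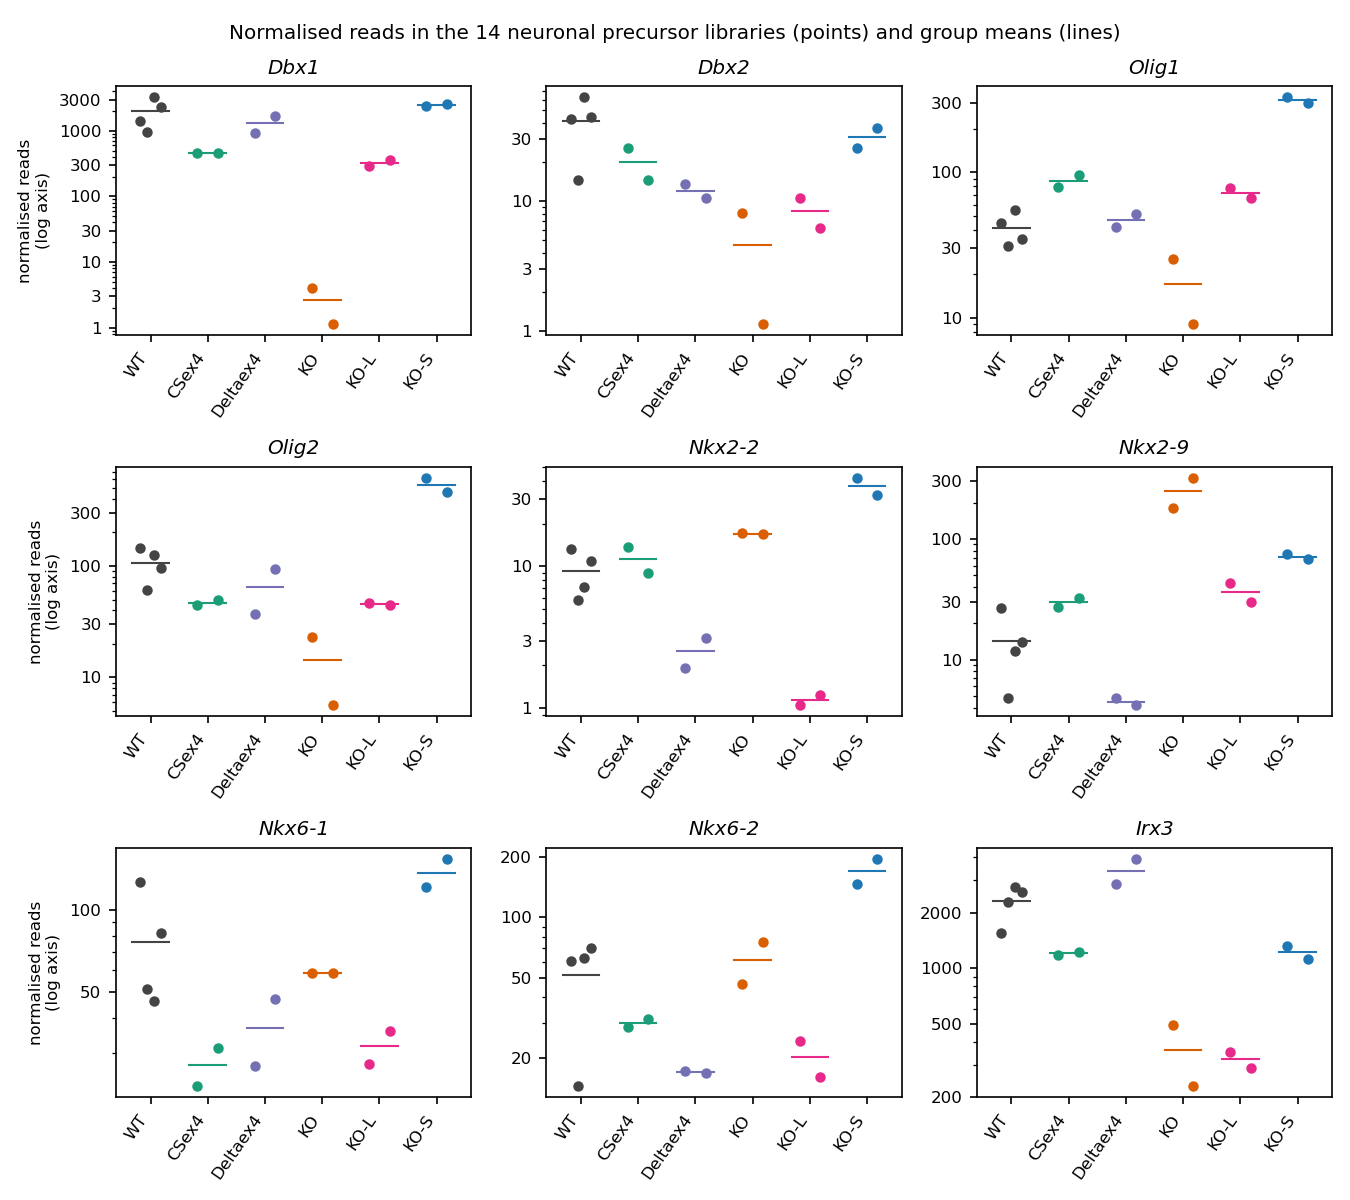
Normalised reads (log axis) of the 9 genes in each of the 14 NP libraries, as points, with the group mean as a line; the scale was set across separately normalised tables through the libraries they share. Dbx1, Olig2 and Irx3 are low in KO and Nkx2-9 is high, and the KO-S libraries exceed all others for Olig1, Olig2, Nkx2-2 and Nkx6-2.

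Nkx2-9 went the other way. This p3 and floor plate factor had 30, 5, 18 and 14 reads in WT, and 179 and 281 in KO. Every KO library exceeded every other NP library. KO was higher than WT by 4.27 ± 0.69 in the authors' deposited table (log2, SE; adjusted p 2.5e-08). The log2 ratio computed from the reads of Nkx2-9 was 4.32, and ran from 3.15 without WT library b to 5.49 without WT library a. The rescues fell to 41 and 24 reads in KO-L and 73 and 64 in KO-S, by 2.73 ± 0.53 and 1.75 ± 0.46 against KO in the authors' deposited tables (adjusted p 2.8e-06 and 0.00068). CSex4 had 28 and 29 reads and Deltaex4 5 and 4. Its paralog Nkx2-2, which specifies the p3 stripe, had few reads everywhere: 15, 6, 11 and 11 in WT, 14 and 8 in CSex4, 2 and 3 in Deltaex4, 17 and 15 in KO, 1 and 1 in KO-L, and 41 and 30 in KO-S. No NP table called it, and in CSex4 it had no adjusted p. The value nearest to a call was KO-L over KO, at -3.90 ± 1.91 in the authors' deposited table (adjusted p 0.13), where the libraries did not overlap but 2 reads in all stand behind KO-L.

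Nkx6-1 and Nkx6-2, which span the ventral stripes and act as repressors, were not called in KO in either WT table. Nkx6-1 had 141, 53, 71 and 82 reads in WT, 23 and 28 in CSex4, 28 and 45 in Deltaex4, 58 and 52 in KO, 26 and 29 in KO-L, and 118 and 144 in KO-S. CSex4 lay below every WT library, and the authors' deposited table gave -1.60 ± 0.75 (unadjusted p 0.034, adjusted p 0.26). Nkx6-2 had 68, 15, 96 and 70 reads in WT, 29 and 28 in CSex4, 18 and 16 in Deltaex4, 46 and 67 in KO, 23 and 13 in KO-L, and 144 and 183 in KO-S. The KO-S libraries lay above all others, and KO-S rose over KO by 1.51 ± 0.50 in the authors' deposited table (log2, SE; adjusted p 0.010). Nkx6-1 was at 1.21 ± 0.54 in that comparison in the authors' deposited table (adjusted p 0.066).

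Relative to KO, KO-L changed 3 of the 9 genes (Dbx1 and Olig1 up, Nkx2-9 down; 24.7% of all genes tested were called) and KO-S changed 6 (Dbx1, Olig1, Olig2, Nkx6-2 and Irx3 up, Nkx2-9 down; 34.5% of all genes tested). Dbx2 had no adjusted p in KO-L over KO, so it could not be called there. The medians of the 9 genes were -0.08 and 1.85 in the authors' deposited tables, beside 0.0051 and 0.0026 over all genes with an adjusted p. Both tables share the KO libraries, so the rescues were compared through the difference of their log2 fold changes, divided by the root of the summed squared SE, with Benjamini-Hochberg adjustment over all genes with a mean normalised count of at least 10. Of 7 genes that could be tested, 3 were higher in KO-S than in KO-L, against 10.3% of all genes tested that differed (5.71% higher in KO-S). They were Olig2, by 3.42 (95% interval 1.21 to 5.63, adjusted p 0.028), Nkx6-2, by 3.08 (1.14 to 5.02, adjusted p 0.023), and Irx3, by 1.93 (1.06 to 2.80, adjusted p 0.00044). The other 4 differences were not called: 3.00 for Dbx1 (interval 0.46 to 5.53, adjusted p 0.14), 2.06 for Olig1 (0.15 to 3.98, adjusted p 0.20), 2.11 for Nkx6-1 (0.25 to 3.97, adjusted p 0.16) and 0.97 for Nkx2-9 (-0.39 to 2.33, adjusted p 0.49). Since the KO libraries enter both terms, the SE is too large rather than too small.

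The rescues were set against WT in the same way, through WT libraries c and d over KO. They were not tested against WT libraries a and b. Normalised Dbx1 reads were 3240 and 2312 in c and d, 1419 and 956 in a and b, and 294 and 356 in KO-L, so the size of its difference depends on the WT pair. Of 7 genes tested, KO-L stayed below WT at Dbx1, by -3.11 (interval -5.23 to -0.99, adjusted p 0.033), and at Irx3, by -3.07 (-4.01 to -2.13, adjusted p 2.2e-08), against 14.2% of all genes tested that differed (7.28% lower in KO-L). KO-S differed from WT at 1 of 9 genes, with Nkx2-9 higher by 2.47 (1.01 to 3.92, adjusted p 0.024), against 4.77% of all genes tested (2.94% higher in KO-S). For Olig1 and Olig2 the KO-S values exceeded those of WT by 2.76 (0.54 to 4.98, adjusted p 0.19) and 2.17 (0.33 to 4.02, adjusted p 0.23), which were not called. Irx3 ran the other way, at -1.14 (-1.97 to -0.30, adjusted p 0.12), also not called, and its KO-S libraries lay below every WT library. Of the 9 genes, 4 had an unadjusted p under 0.05. The difference for Dbx1 was -0.11 with an interval of -2.54 to 2.31. The same test could not compare the WT pairs with each other: the KO libraries cancel in that difference while their error enters its SE from both tables, and it called 0% of all genes tested. CSex4 and Deltaex4 differed at 0 of 8 genes by this test (2 with an unadjusted p under 0.05; 1.78% of all genes tested were called). The value closest to a call was Irx3, at -1.47 (-2.37 to -0.57, adjusted p 0.065), lower in CSex4.

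**Figure D3:**
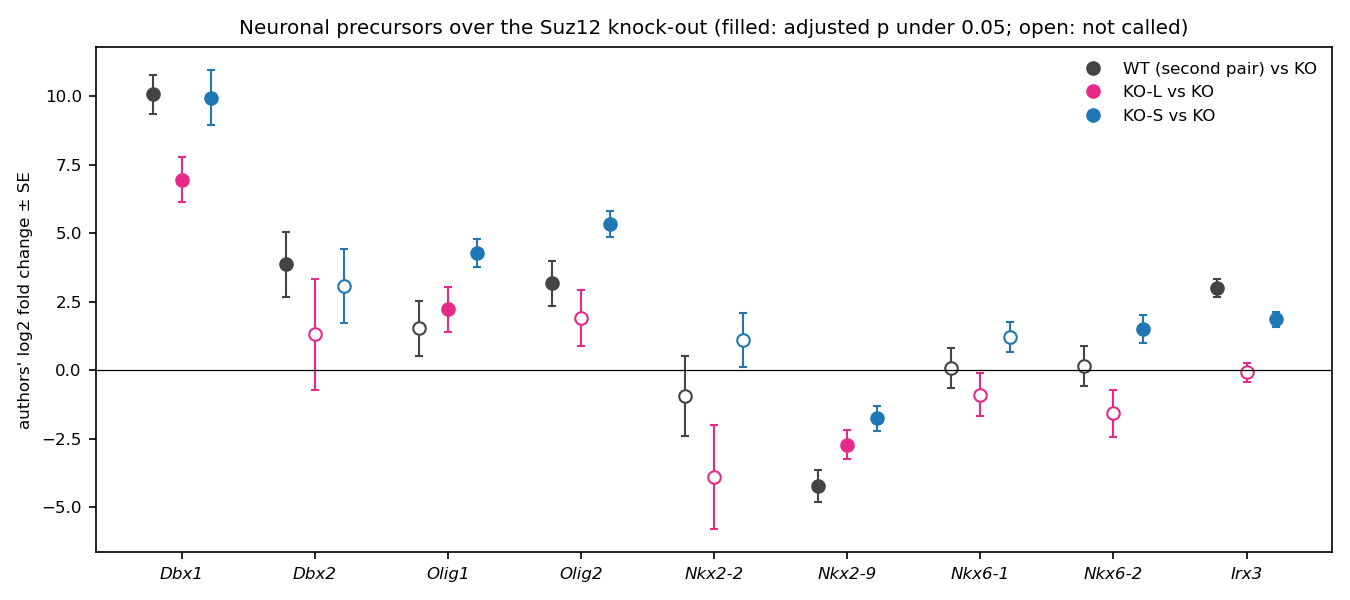
Authors' log2 fold changes over the NP knock-out, with SE, for WT libraries c and d (grey), KO-L (magenta) and KO-S (blue); filled points were called at an adjusted p under 0.05. For Irx3, KO-L sits at -0.08 while KO-S and WT sit at 1.85 and 2.99, and for Nkx2-9 all 3 lie below 0.

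In ESC, Dbx1 had 0 reads in all 18 libraries, which allows up to 3 reads in each (counting error only), so no fold change is given. Olig1 and Olig2 rose in several groups. Olig2 had 303, 333 and 580 reads in WT and 1008, 824 and 1137 in KO. The KO-L libraries had 694 and 617 and the KO-S libraries 982 and 954, with 2126 and 2898 in KO-L3D, 1036 and 1028 in KO-S3D, 328 and 536 in CSex4, and 1261 and 325 in Deltaex4. WT libraries overlapped those of CSex4 and Deltaex4 and no others; the 2 Deltaex4 libraries were far apart. KO was higher by 1.27 ± 0.32 (adjusted p 0.00084), KO-S by 1.17 ± 0.35 (0.018) and the libraries labelled KO-L3D by 2.26 ± 0.31 (8.7e-11) in the authors' deposited tables (log2, SE, authors' adjusted p). Olig1 had 357, 410 and 669 reads in WT and 928, 695 and 924 in KO. The KO-L libraries had 622 and 633 and the KO-S libraries 1011 and 1196, with 1692 and 2289 in KO-L3D, 794 and 846 in KO-S3D, 238 and 491 in CSex4, and 910 and 465 in Deltaex4. In the authors' deposited tables it was called in KO-S (1.10 ± 0.36, adjusted p 0.034) and KO-L3D (1.67 ± 0.32, adjusted p 5.7e-06), and stood at 0.80 ± 0.31 in KO (adjusted p 0.054). All 7 ESC tables share the 3 WT libraries, and in 6 of them the fold changes rest on WT libraries b and c, so these values are not independent.

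Nkx6-2 was raised in the short-isoform rescue and in the libraries labelled KO-L3D, where Suz12 mRNA was at -1.85 against WT, beside -1.82 in KO, in the authors' deposited tables. It had 72, 52 and 56 reads in WT and 61, 67 and 55 in KO. The KO-L libraries had 71 and 59 and the KO-S libraries 332 and 254, with 257 and 343 in KO-L3D, 61 and 48 in KO-S3D, 52 and 80 in CSex4, and 20 and 58 in Deltaex4. The 4 libraries of KO-S and KO-L3D lay above all others. The log2 fold changes over WT were 2.46 ± 0.48 in KO-S (adjusted p 2.3e-05) and 2.23 ± 0.53 in KO-L3D (adjusted p 0.00062), beside -0.04 ± 0.42 in KO itself (adjusted p 0.97), in the authors' deposited tables. Irx3 had 9, 6 and 10 reads in WT and 63, 41 and 39 in KO, higher by 2.44 ± 0.65 in the authors' deposited table (adjusted p 0.0021). Its KO-S3D libraries had 191 and 4 reads and its KO-L3D libraries 107 and 29, so replicates of these groups were far apart; the authors' deposited tables did not call either (adjusted p 0.44 and 0.093).

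The other genes were scarce in ESC. Dbx2 had 4, 4 and 8 reads in WT and 37, 23 and 18 in KO, without overlap, at 2.21 ± 0.85 in the authors' deposited table (adjusted p 0.051). Nkx2-9 had 23, 32 and 34 reads in WT and 44, 40 and 38 in KO, with a range over all ESC libraries from 4 in KO-S to 90 in KO-L; no ESC table called it. Nkx6-1 had 0, 0 and 1 reads in WT and 13, 3 and 7 in KO, and Nkx2-2 had 3 reads in all in WT, 0 in KO-S and 22 and 8 in CSex4. Neither was called in any ESC table, and only the KO and Deltaex4 tables gave them an adjusted p.

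In all, 2 of the 9 genes were called in ESC KO (Olig2 and Irx3; 18.3% of all genes tested, 11% as higher), 3 in KO-S (Olig1, Olig2 and Nkx6-2; 7.91%, 4.28% as higher) and 3 in the libraries labelled KO-L3D (again Olig1, Olig2 and Nkx6-2; 18.3%, 8.22% as higher). By the authors' test, 0 were called in CSex4 (2.41% of all genes tested), Deltaex4 (0%), KO-L (2.23%) or KO-S3D (3.23%). At an unadjusted p under 0.05 these counts were 0, 0, 0 and 1. Only genes with an adjusted p could be called, 8 of the 9 in KO and Deltaex4 and 6 in KO-L3D. In KO-S3D there were 5, and in CSex4, KO-L and KO-S 4 each. The shares of all genes likewise count only genes with an adjusted p. The libraries labelled KO-L3D exceeded KO-L at Olig2 by 1.66 (95% interval 0.67 to 2.66, adjusted p 0.029), 1 of 5 genes tested, against 4.88% of all genes tested (1.76% as higher). The same difference for Olig1 was 1.39 (0.43 to 2.35, adjusted p 0.072) and for Nkx6-2 1.94 (0.16 to 3.71, adjusted p 0.23). KO-S minus KO-L gave 0 of 4 in ESC (3.94% of all genes tested), with 2.17 for Nkx6-2 (0.45 to 3.89, adjusted p 0.17) and -3.21 for Nkx2-9 (-5.99 to -0.42, adjusted p 0.25), and KO-S3D minus KO-S gave 0 of 4 (0.732%), with -2.40 for Nkx6-2 (-4.31 to -0.49, adjusted p 0.45). At an unadjusted p under 0.05 the counts of these tests were 2 and 1.

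**Figure D4:**
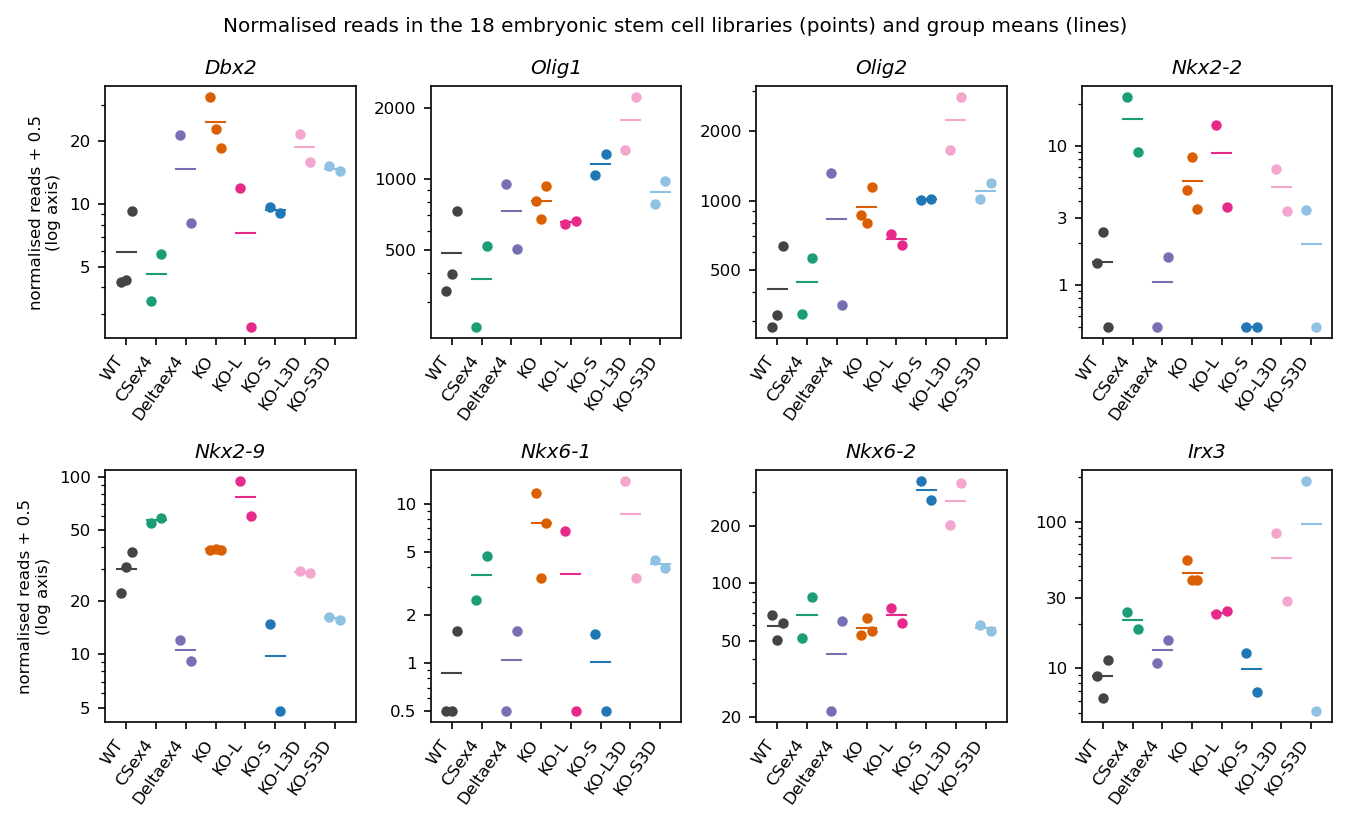
Normalised reads plus 0.5 (log axis) of 8 genes in each of the 18 ESC libraries, as points, with the group mean as a line; Dbx1 is left out because it had 0 reads throughout. Olig1 and Olig2 are highest in the libraries labelled KO-L3D, Nkx6-2 is high there and in KO-S, and the 2 KO-S3D libraries of Irx3, at 191 and 4 reads, are far apart.

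The knock-out effect differed between NP and ESC at 4 of the 6 genes that could be tested, against 14.3% of all genes tested. No library is shared between the stages. Irx3 was higher in KO in ESC and lower in KO in NP, and the NP effect minus the ESC effect was -4.93 (95% interval -6.39 to -3.46, adjusted p 5.2e-09). For Olig2 it was -4.21 (-6.20 to -2.22, adjusted p 0.00068), again with opposite signs and both effects called. For Dbx2 it was -5.02 (-8.56 to -1.47, adjusted p 0.042), with neither effect called by itself in these tables; over WT libraries c and d, the NP effect on Dbx2 was called. With no minimum count the adjusted p of this difference was 0.055, which is not called. For Nkx2-9 it was 3.87 (2.16 to 5.59, adjusted p 0.00023), from an effect of 0.40 ± 0.53 in ESC to 4.27 ± 0.69 in NP in the authors' deposited tables. Olig1 and Nkx6-2 were not called, at -2.08 (-4.46 to 0.31) and 1.01 (-0.95 to 2.97).

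**Figure D5:**
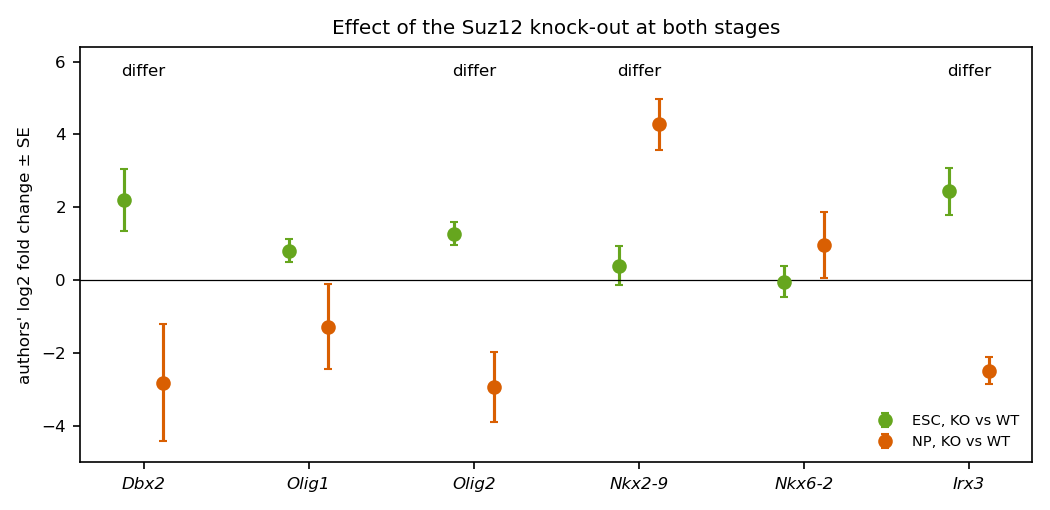
Authors' log2 fold changes of KO over WT, with SE, in ESC (green) and NP (orange) for the 6 genes read well enough at both stages; genes whose effects differ at an adjusted p under 0.05 are marked. Irx3, Olig2 and Dbx2 lie above 0 in ESC and below 0 in NP.

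Genes of the same pathway moved beside these. In NP KO vs WT 21.4% of all genes tested were called, in KO-L over KO 24.7% and in KO-S over KO 34.5%, and the counts of the lists stand beside these shares. Of 12 Hedgehog pathway genes, 2 rose and 4 fell in NP KO vs WT by the authors' test, with a median of -0.46. Foxa2 is in this list and also among the endoderm markers below. In KO-S vs KO 8 rose and 2 fell, and in KO-L vs KO 6 rose and 2 fell, with medians of 0.72 and 0.32. Shh, the ligand that patterns the ventral cord, rose in KO by 3.13 ± 0.54 in the authors' deposited table (adjusted p 2.4e-07); it had 161, 39, 144 and 38 reads in WT, 608 and 619 in KO, 246 and 178 in KO-S, 71 and 83 in KO-L, 55 and 43 in CSex4 and 5 and 15 in Deltaex4. Every KO library exceeded all others, as for Nkx2-9. Boc, a Hedgehog co-receptor, fell in KO by 3.76 ± 0.43 and rose in KO-S over KO by 2.57 ± 0.23, and Gli1, a transcriptional target of the pathway, rose in KO-S over KO by 2.28 ± 0.24, in the authors' deposited tables (adjusted p 1.5e-16, 1.5e-26 and 3.1e-19).

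Of 13 dorsal progenitor and roof plate genes (13 with an adjusted p in KO vs WT and 10 in KO-S over KO), 7 fell and 0 rose in KO, and 7 rose and 0 fell in KO-S over KO, with medians of -2.46 and 1.03. The KO counts are over WT libraries a and b. WT libraries c and d over KO had 6 higher and 0 lower of 13 with an adjusted p, with a median of 2.045. In that comparison 32.9% of all genes tested were called. KO-L over KO had 5 higher and 2 lower of 12 with an adjusted p, with a median of 1.55, beside 1.03 in KO-S over KO. Wnt1, a roof plate signal, fell by 6.90 ± 0.55 in KO and rose by 4.61 ± 0.62 in KO-S over KO in the authors' deposited tables (adjusted p 1.4e-32 and 3.6e-12). Pax7 rose by 2.96 ± 0.57 in KO-S over KO in the authors' deposited table (adjusted p 2.1e-06). Olig3, a dorsal relative of Olig2, fell by 7.45 ± 0.75 in KO in the authors' deposited table (adjusted p 1.3e-20), a comparison with WT library b, in which it was far higher than in the other WT libraries. Of 12 paralogs of these factors outside the 9, 9 had an adjusted p in KO vs WT, KO-L over KO and KO-S over KO. Olig3 is in this list and in the dorsal list. Of those with an adjusted p, 2 rose and 5 fell in KO, while the median of all 12 was 1.43. In KO-L over KO 1 rose and 3 fell, and in KO-S over KO 3 rose and 3 fell. The medians there were -1.21 and 0.33. WT libraries c and d over KO had 4 higher and 3 lower of 10 with an adjusted p, with a median of -1.57. Irx5 fell by 3.65 ± 0.48 in KO and rose by 2.86 ± 0.39 in KO-S over KO in the authors' deposited tables (adjusted p 2.4e-12 and 4.2e-12). Nkx2-5, a heart factor, fell by 3.66 ± 0.62 in KO-S over KO in the authors' deposited table (adjusted p 5.4e-08). Of 20 genes of spinal neuron classes, 16 had an adjusted p in KO vs WT, 16 in KO-L over KO and 17 in KO-S over KO. Of these, 5 rose and 4 fell in KO. In KO-L over KO 3 rose and 6 fell, and in KO-S over KO 4 rose and 5 fell. Lhx1, of several interneuron classes, fell by 3.82 ± 0.55 in KO and rose by 3.09 ± 0.25 in KO-S over KO in the authors' deposited tables (adjusted p 2.4e-10 and 5.0e-34). Gata2, of V2b interneurons, rose by 2.42 ± 0.39 in KO and fell by 1.65 ± 0.22 in KO-S over KO there (adjusted p 2.0e-08 and 5.8e-13).

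Markers of cell state moved with the same comparisons, and their part in the results was not tested. Of 6 neural precursor markers, 5 fell in NP KO vs WT, 4 rose and 1 fell in KO-L over KO, and 6 rose in KO-S over KO; of 4 neuron markers, 3 fell, 3 rose and 4 rose. Their summed mean normalised counts ran over the 6 NP tables from 5795 to 22480 and from 4199 to 22709. Over WT libraries c and d, the lists gave 5 neural precursor markers and 4 neuron markers lower in KO. Of 5 pluripotency markers, 1 rose in KO over WT libraries a and b and 4 over c and d (medians of -0.28 for KO over WT and of -1.64 for WT over KO), 3 rose in KO-L over KO and 2 fell in KO-S over KO, with summed counts of 3598 to 18450 in the NP tables, highest in CSex4. Of 5 endoderm markers, 3 rose and 1 fell in KO (3 and 0 over c and d), and 3 and 4 fell in KO-L and KO-S over KO, with summed counts of 8218 to 12679. Mesoderm and glia markers summed to 407 to 723 and 1175 to 1841, and Mesp1 was at 0 in the Deltaex4 table, the only marker of any of these lists without a read in an NP table.

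Over the 6 NP tables, the genes whose log2 fold changes lay closest to the median of the 9 were sought among 14956 genes, by the root mean square difference. The closest were 2410006H16Rik (0.38), Upf3b (0.39), Epb41l4aos (0.41), Tox (0.41) and Gt(ROSA)26Sor (0.41). The last is transcribed from the locus into which the design text places rescue constructs. In the authors' deposited tables, Gt(ROSA)26Sor had log2 fold changes of -1.38 in KO against WT, and 0.08 (KO-L) and 1.06 (KO-S) over KO. The medians of the 9 were -1.27, -0.08 and 1.85. In Deltaex4 and CSex4 against WT it had -0.32 and -0.08, beside medians of -0.82 and -0.38. The gene was picked for the closeness of these values, so their likeness is no separate result. A link to the rescue constructs was not tested.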

How the data were processed

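The deposited files were 13 tables of statistics with 1 line per gene and 2 lists of ChIP-seq regions. The submitters' processing notes name Bowtie, TopHat, DESeq2 and DiffBind and the builds mm10 and dm3; versions are not given in the sources used here, and the labels call the tables paired. Per the file headers, the authors gave for each gene a mean normalised count (a signal: reads divided by size factors, averaged over the libraries of the table), a log2 fold change with its standard error, a test statistic (a score), a p-value and an adjusted p-value. Per the file headers, each line of the DiffBind region lists ends in a number from 0 to 1, which may be a raw p-value or its adjusted form. No test per gene was refitted. An adjusted p-value left empty in a deposited table stayed empty.

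The deposited mean is a sum of whole reads over size factors, written to 15 significant digits, so the reads of single libraries were solved exactly for the 9 genes, jointly over tables that share libraries. Libraries were linked by 150 genes with the same reads; other pairs had the same reads in at most 10.7% (NP) and 13.3% (ESC) of them. On simulated data, 60 of 60 genes were recovered for NP and 60 of 60 for ESC, with 0 wrong. A library's group came from the tables that hold it. Reads were used as a description, without a test, and levels across tables were put on one scale through shared libraries. In the 6 ESC tables with 2 libraries beside WT, WT library a did not bear on the fold change.

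Differences between fold changes were tested with a normal approximation (two-sided, Benjamini-Hochberg, threshold 0.05, mean normalised count of at least 10 in both tables). Gene positions and promoter windows came from RefSeq GRCm38.p6, taken as the build of mm10. The genes named were the 9, Suz12, and from each pathway list the 2 called genes with the largest statistic in NP KO vs WT and in NP KO-S vs KO. The 9 genes and the lists were chosen with earlier results of these data known. Python 3.11.15, numpy 2.4.6, pandas 2.3.3, scipy 1.17.1, numba 0.67.0 and matplotlib 3.10.9 were used. Other thresholds, filters, region distances and the leaving out of single libraries were tried. Per-sample ChIP-seq values were not analysed here.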

Additional observations from a re-analysis of the deposited data

Results flagged for a closer look

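In NP WT, the lowest library stood far from the other 3 for Nkx6-2: the gap from library b, with 15 reads, to the nearest library took up 0.831 of the range of normalised reads. This was 1 of 9 groups of 4 examined, and chance gives such a gap in about 1 of 20. Library b is also the one with 1534 reads of Olig3.

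The effect of the knock-out differed between NP and ESC, by the test of the difference itself, at 4 genes. The NP effect minus the ESC effect was -5.02 for Dbx2, -4.21 for Olig2 and -4.93 for Irx3 (log2), and 3.87 for Nkx2-9.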

How the results depend on the processing

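With p adjusted over genes with a mean normalised count of at least 10, 4 instead of 2 of the 9 genes were called in ESC KO vs WT. At an adjusted p under 0.01, the calls went from 3 to 1 in ESC KO-S vs WT, from 3 to 1 for NP KO-S minus KO-L (Irx3), from 2 to 1 for NP KO-L minus WT (Irx3), from 1 to 0 for NP KO-S minus WT and from 1 to 0 for ESC KO-L3D minus KO-L. The other counts of called genes, and the counts of genes with a region, stayed within 1.5 times under every setting tried; the knock-out effect differed between NP and ESC at 3 instead of 4 genes with no minimum count and at an adjusted p under 0.01, both without Dbx2. Leaving out single libraries, for the 27 called pairs of gene and table, gave 118 values of the log2 ratio from reads. In each of these pairs the groups did not overlap, so no sign could change, and 0 did. No test was rerun on these values. The fold moved by over 1.5 times in 24 of them, in 11 pairs, all in NP. Nkx2-9 in KO vs WT ran from 3.15 (without WT library b) to 5.49 (without WT library a). The other 10 pairs had their lowest and highest values without KO library a or b. Among these were Olig2 in KO vs WT, from -3.94 to -1.996, Dbx2 in WT vs KO, from 2.62 to 5.06, Olig1 in KO-L vs KO, from 1.51 to 2.91, and Olig2 in KO-S vs KO, from 4.49 to 6.42. No paired analysis was possible because the tables hold the authors' statistics and the libraries solved from them carry no replicate numbers. Few reads limit Nkx2-2 and Dbx2 in NP and all but Olig1, Olig2 and Nkx6-2 in ESC.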
